A study of Mus musculus with 26 samples.

Results

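The Dppa2/4-dependent bivalent promoter regions are stretches of chromatin in mouse embryonic stem cells (ESCs) that gave signal in sequential ChIP (reChIP) for H3K4me3 and H3K27me3 in wild-type (WT) clones and much less in clones that lack both Dppa2 and Dppa4. A region was taken when it was listed for WT cells in K4-K27 reChIP (H3K4me3 first, H3K27me3 second), overlapped a region listed in K27-K4 reChIP (the reverse order), and lay within 1.5 kb of a gene start site. In both orders the lower of the 2 WT values also had to exceed the higher of the 2 double-knockout (DKO) values by at least 1.5 on a log2 scale. Of 26544 K4-K27 regions, 12025 were shared with K27-K4, 7563 of those lay at promoters, and 318 promoter regions met the gap. A further 358 shared regions away from promoters met it too and are not described. The gap of 1.5 or more was reached by 721 of the 26544 regions in all, which is 2.72%. The 318 regions were selected on the reChIP values of the clones, so their loss of reChIP signal is a description and was not tested.

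Feeder-free ESCs grown in serum with LIF were profiled from 2 groups of clones, WT clones 57 and 58 with Dppa2 and Dppa4 intact, and DKO clones 43 and 53 with both genes deleted. E14, an established mouse ESC line, was profiled in replicates 1 and 2. Each chromatin sample gave libraries of K4-K27, K27-K4 and both totals (H3K4me3 and H3K27me3), where a total (in-line total) is a 10% portion of the first ChIP kept aside before the second, and 1 IgG-IgG reChIP served each of the 2 cell sources, from WT clone 57 and from E14 replicate 1. Every clone is a single derived line and the 2 clones per genotype are the only replicates, so tests measure the spread between these clones. In bulk chromatin, fewer cells carrying a mark and less of the mark per cell cannot be told apart.

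Bivalent chromatin carries H3K4me3, a mark of active promoters laid down by Trithorax-type enzymes, together with H3K27me3, the mark of Polycomb repression. In ESCs it covers many developmental promoters that are silent or weakly used and can later be switched on or off. DPPA2 and DPPA4 are small DNA-binding proteins of pluripotent cells that act as a pair and are known to keep both marks at a subset of such promoters. Sequential ChIP asks whether both marks sit on the same chromatin fragment, since only fragments caught by the first antibody reach the second.

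The 4 regions with the widest gap that have a promoter sequence in RefSeq show how different the underlying DNA can be, and so they are printed first. Each sequence is the 250 bases upstream of the start site on the + strand of GRCm38.p6, with every CpG in capitals, because CpG-rich DNA is the usual setting of bivalent chromatin. Pdzrn4 lies at chr15:92396560-92396809, Sstr4 at chr2:148395127-148395376, Dab1 at chr4:103619250-103619499 and Twist2 at chr1:91801211-91801460.
Pdzrn4: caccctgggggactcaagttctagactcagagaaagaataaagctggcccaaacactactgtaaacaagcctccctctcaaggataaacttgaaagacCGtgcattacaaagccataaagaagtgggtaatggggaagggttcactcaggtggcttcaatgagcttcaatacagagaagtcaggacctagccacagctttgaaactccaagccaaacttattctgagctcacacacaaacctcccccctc
Sstr4: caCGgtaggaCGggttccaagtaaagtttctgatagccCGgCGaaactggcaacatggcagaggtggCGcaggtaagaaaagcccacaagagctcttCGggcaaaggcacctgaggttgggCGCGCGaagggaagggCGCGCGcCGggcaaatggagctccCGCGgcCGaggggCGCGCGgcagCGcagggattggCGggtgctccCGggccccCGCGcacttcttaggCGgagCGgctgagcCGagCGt
Dab1: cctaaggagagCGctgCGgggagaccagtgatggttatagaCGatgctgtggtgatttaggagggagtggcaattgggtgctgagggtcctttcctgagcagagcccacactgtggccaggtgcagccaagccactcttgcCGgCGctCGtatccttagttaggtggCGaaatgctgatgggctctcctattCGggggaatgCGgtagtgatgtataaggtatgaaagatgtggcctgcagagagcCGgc
Twist2: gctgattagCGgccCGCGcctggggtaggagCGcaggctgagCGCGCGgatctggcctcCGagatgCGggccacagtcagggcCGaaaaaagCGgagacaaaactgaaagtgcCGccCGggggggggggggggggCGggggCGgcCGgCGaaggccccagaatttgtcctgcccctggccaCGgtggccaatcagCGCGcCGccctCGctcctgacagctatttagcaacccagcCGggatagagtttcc
The Pdzrn4 stretch holds 1 CpG and is 47.2% GC, while the Sstr4 stretch holds 28 CpGs at 67.2% GC. Dab1 has 10 CpGs at 56.4% GC, and Twist2 has 23 at 68.8%. A CpG-poor stretch and CpG-rich ones thus stand together at the top of the ranking, although the whole Pdzrn4 region, most of it downstream of the start site, has 4.28 CpGs per 100 bp.

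All values are log2 RPM per kb (sequenced reads scaled to library size, RPM, and to region length) as deposited, where a difference of 1 is a doubling, and the IgG-IgG value is the background of the same region. Library depth was between 9242971 and 33848181 reads in the clones and between 6741245 and 47903464 in E14 cells. The median number of reads behind a clone value at the 318 regions ran from 14 in K4-K27 of DKO clone 43 to 350.5 in K27-K4 of WT clone 57. The lowest DKO values rest on a few reads, so how far they fall below the background is imprecise. At 10 regions DKO clone 43 and at 4 regions DKO clone 53 had no K4-K27 read at all, and a value for 0 reads was deposited as if 0.9 reads had been counted. The gap uses the higher DKO value, so that entry sets it only where the other DKO clone had no higher value. Total H3K4me3 at the promoters of the deleted genes did not separate the genotypes, with 1.90, 0.77, 2.08 and 1.34 at Dppa2 and 2.34, 1.45, 2.39 and 1.56 at Dppa4 in WT clones 57 and 58 and DKO clones 43 and 53. The position of the deletions is not given in the sources used here, so these values do not check the knockout. Promoters of the pluripotency genes Pou5f1, Nanog, Sox2, Zfp42, Esrrb, Tdgf1, Klf4, Dppa5a and Utf1 were above IgG-IgG in total H3K4me3 in each of the 4 clones. The fibroblast marker genes Col1a1 and Thy1 and the endoderm gene Foxa2 also carried H3K4me3 in every clone, and the third fibroblast marker, Twist2, is itself one of the 318 regions. The endoderm gene Sox17 was above its IgG-IgG value of 1.12 in WT clone 57 (1.74) and below it in the other clones, and Gata6, listed in the E14 table only, had 1.78, 0.97, 1.10 and 1.19 over an IgG-IgG value of 0.31 in WT clones 57 and 58 and DKO clones 43 and 53.

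At the typical Dppa2/4-dependent region, DKO clones held reChIP signal close to IgG-IgG. In K4-K27 the median level was 3.07 in WT clone 57 and 2.65 in WT clone 58, against -0.51 in DKO clone 43 and -0.32 in DKO clone 53. In K27-K4 the medians were 3.55 and 2.81 in the WT clones and 0.16 and 0.31 in the DKO clones, and the median IgG-IgG level was -0.08. Both WT clones lay far above both DKO clones, which the selection requires. The other 7245 shared promoter regions had medians between 2.57 and 3.48 in K4-K27 and between 2.14 and 2.85 in K27-K4 over the same 4 clones.

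**Figure D1:**
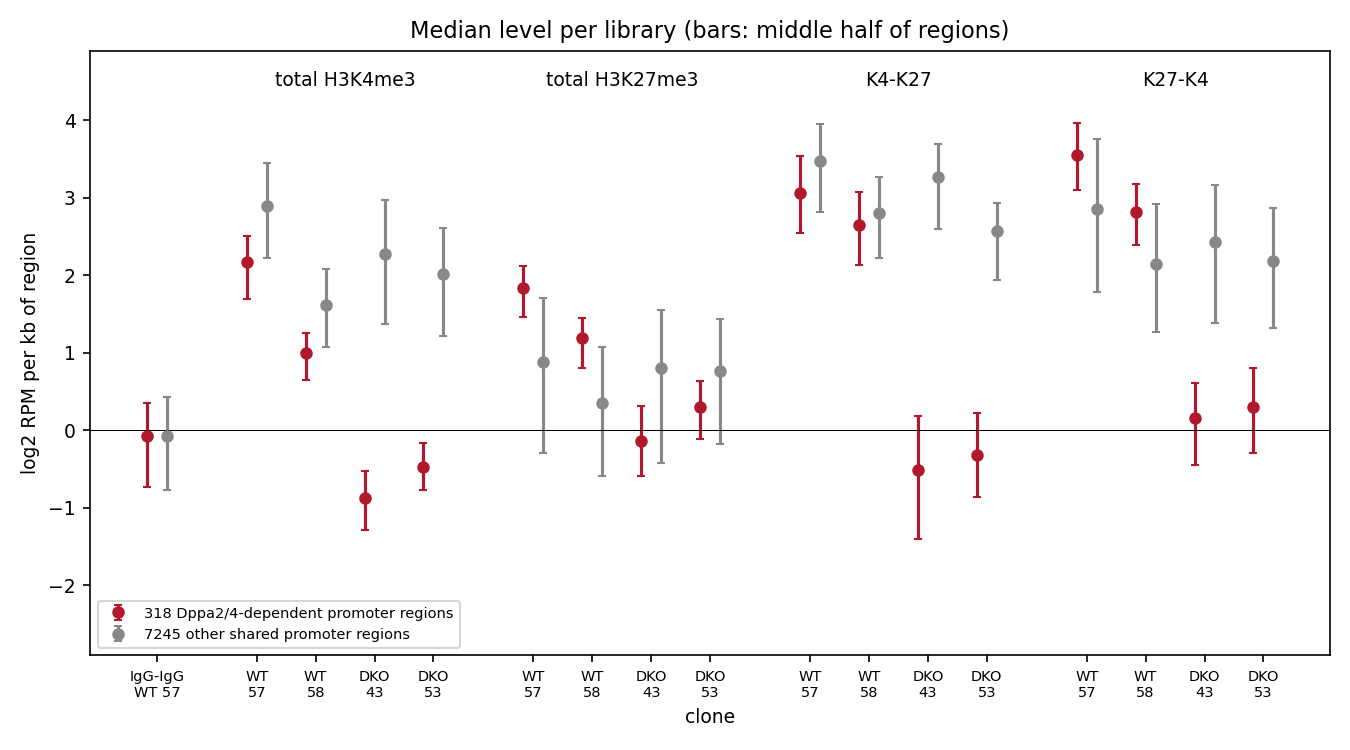
Median level of the 318 Dppa2/4-dependent promoter regions (red) and of the 7245 other shared promoter regions (grey) in each clone library, in log2 RPM per kb, with bars over the middle 50% of regions. In all 4 ChIPs the red medians of the DKO clones lie between -0.88 and 0.31, near the IgG-IgG median of -0.08, while the lowest grey median outside IgG-IgG is 0.36.

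The totals of the same regions, which are separate libraries but come from the first ChIP of the same chromatin, were also lower in the DKO clones. The median total H3K4me3 level was 2.17 in WT clone 57, 1.00 in WT clone 58, -0.88 in DKO clone 43 and -0.48 in DKO clone 53. Total H3K27me3 had medians of 1.84, 1.19, -0.13 and 0.30 in that order. WT clone 57 was the higher WT clone in all 4 ChIPs. The WT clones held less H3K4me3 and more H3K27me3 at these regions than at the other shared promoters, whose medians in WT clones 57 and 58 were 2.90 and 1.61 in H3K4me3 and 0.89 and 0.36 in H3K27me3.

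The level left in the DKO clones was set against IgG-IgG by counts, with no test between the marks. Total H3K4me3 was below IgG-IgG in both DKO clones at 196 of the 318 regions and above it in both at 70. For total H3K27me3 the counts were 90 below and 164 above. Counted per clone, regions above IgG-IgG in total H3K4me3 numbered 72 in DKO clone 43 and 120 in DKO clone 53, and in total H3K27me3 169 and 223. Of the other shared promoter regions 95.7% and 96.2% were above it in total H3K4me3 of these clones, and 71.2% and 74.3% in total H3K27me3. K4-K27 was above it at 132 and 150 regions, whereas for K27-K4 the number was 202 and 220. At the other shared promoters K4-K27 exceeded it in 98.1% and 98.0% of regions, K27-K4 in 97.3% and 98.3%. The reChIP counts are a description only, since the rule used these values.

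The gap between genotypes had a long upper tail. The smaller of the 2 gaps of a region had a median of 2.10 and a highest value of 4.48, with 185 regions at 2 or more, 31 at 3 or more and 3 at 4 or more. The gap was wider in K4-K27 than in K27-K4 at 217 regions, with medians of 2.56 and 2.22. Just inside the threshold lay Cebpe (1.5), which encodes a myeloid transcription factor, Csf1 (1.51), the macrophage growth factor, and the protocadherin gene Pcdhb2 (1.51). Just outside lay Spag16 (1.5 after rounding, under the threshold), BC030500 (1.49) and the desmosomal cadherin gene Dsc2 (1.48). The regions on either side of the threshold thus differ by hundredths of a log2 unit, and nothing separates them but the rule.

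The widest gap was at Pdzrn4, which encodes a RING and PDZ domain protein (chr15:92396401-92398200). Its K4-K27 values were 4.08 and 3.40 in WT clones 57 and 58, and -1.08 and -3.55 in DKO clones 43 and 53. Its K27-K4 values were 4.53 and 3.56 in WT and -2.39 and -1.04 in DKO. Total H3K4me3 was 2.60 and 0.90 in WT and -1.91 and -0.69 in DKO, and total H3K27me3 was 2.22 and 1.25 in WT and -0.95 and -0.17 in DKO. IgG-IgG was 0.93 at this region, so every DKO value was under the background, and WT clone 58 was just under it in total H3K4me3. The DKO minus WT difference was -3.05 ± 0.71 (SE, n = 2 clones per genotype) for total H3K4me3 and -2.30 ± 0.44 for total H3K27me3.

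Sstr4 (chr2:148394701-148396350) encodes a somatostatin receptor. Its K4-K27 values were 3.88 and 3.79 in WT and -0.80 and -0.61 in DKO, its K27-K4 values 4.72 and 3.84 in WT and -1.46 and -1.24 in DKO. Total H3K4me3 was 2.81 and 1.63 against -1.03 and -0.80, and total H3K27me3 2.05 and 1.62 against -1.11 and -0.19, with IgG-IgG at -0.81. The WT clones lay far above IgG-IgG in both reChIPs, and the DKO clones lay near or below the background in both orders. Dab1 (chr4:103618801-103620900), the adaptor of reelin signalling in neurons, had 3.82 and 3.41 against -2.15 and -0.68 in K4-K27 and 4.11 and 3.47 against -1.81 and -0.85 in K27-K4. Its totals were 2.24 and 1.12 against -1.44 and -1.21 for H3K4me3 and 1.90 and 1.07 against -0.56 and -0.94 for H3K27me3, and IgG-IgG was 0.35. All 8 DKO values of Dab1 lay below the background and all 8 WT values above it.

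Twist2 (chr1:91799551-91803300) encodes a basic helix-loop-helix repressor of mesenchymal cells. Its K4-K27 values were 3.84 and 3.50 in WT and -1.40 and -0.21 in DKO, and its K27-K4 values were 4.47 and 3.53 in WT and -0.43 and -0.42 in DKO. Total H3K27me3 was 2.43 and 1.65 in WT and -1.01 and -0.50 in DKO, a difference of -2.79 ± 0.44 that is among the 5 largest, and total H3K4me3 was 2.23 and 0.99 in WT and -1.50 and -0.42 in DKO. At Twist2 the H3K27me3 difference was as wide as that of H3K4me3 (-2.57 ± 0.71).

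The other regions among the 10 widest were at Esr1, the oestrogen receptor alpha gene, Qrfprl, a G protein-coupled receptor gene, Gp5, a platelet glycoprotein gene, Fem1al, the D330025C20Rik and Kcng2 pair, of which Kcng2 encodes a potassium channel subunit, and Svep1, an extracellular matrix gene. The Esr1 region (chr10:4711651-4713600) lies 1493 bp from the nearest start site and the Gp5 region (chr16:30307951-30310350) 431 bp from its own, while the others contain a start site. At Fem1al (chr11:29823601-29826600) K4-K27 was 2.68 and 2.48 in WT against -4.98 and -2.96 in DKO, the latter far under the IgG-IgG value of 0.49. Both DKO values rest on very few reads, so the depth of this loss is imprecise. At Gp5 K4-K27 was 4.12 and 3.20 against -2.34 and -0.71, with IgG-IgG at -1.46. All 10 regions had both WT clones above both DKO clones in both totals. Over all regions these shares were 17.2% in total H3K4me3 and 15.8% in total H3K27me3. All 10 also passed the call described next in both totals, where 0.418% of all regions were called lower in both. The 10 were chosen on gaps between the same clones, so these counts go with the choice and are no separate evidence.

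**Figure D2:**
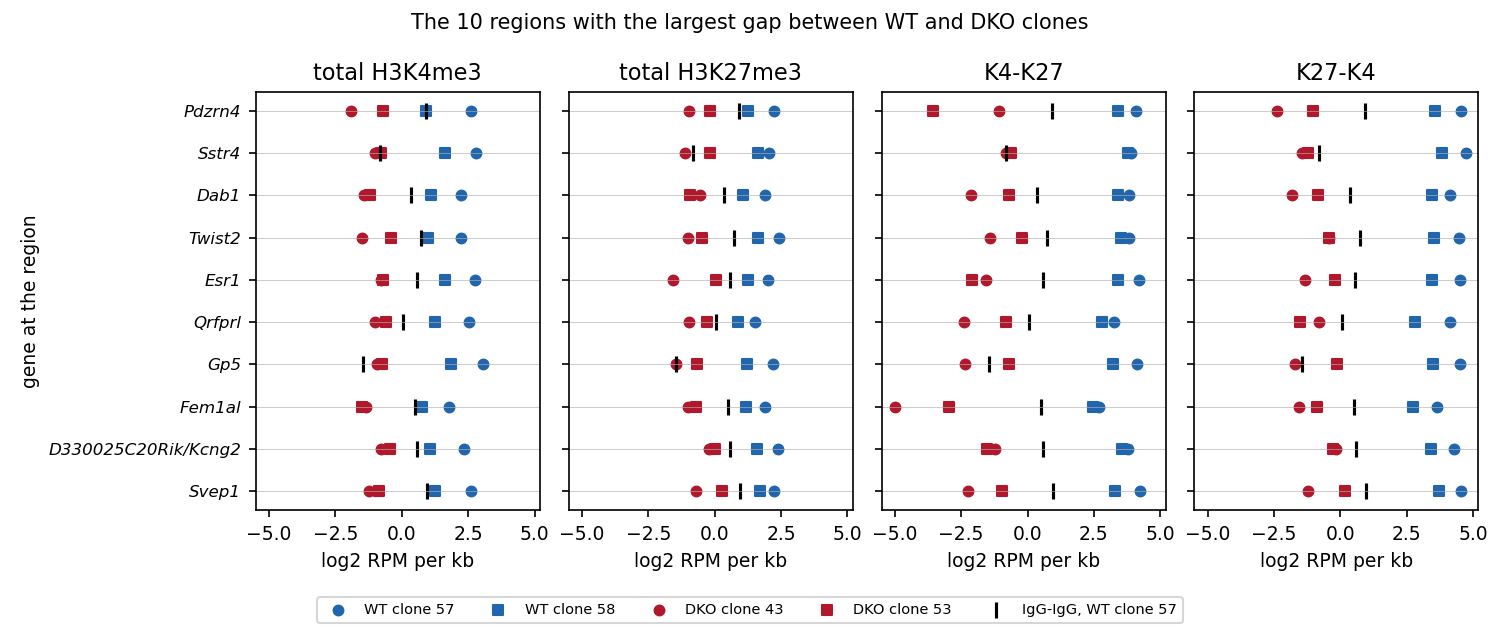
Values of the 10 regions with the widest gap in each clone, in log2 RPM per kb, with a panel for each ChIP; circles and squares are the clones of a genotype (WT blue, DKO red) and the black tick is IgG-IgG of WT clone 57. Blue and red points are apart in every row of every panel, and the Fem1al point of DKO clone 43 in K4-K27 reaches -4.98, a value set by very few reads.

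The size of the difference in the totals was estimated with limma over all 26544 regions, with a call at a log2 difference beyond 1 and a Benjamini-Hochberg adjusted p under 0.05. For total H3K4me3 the DKO minus WT difference at the 318 regions had a median of -2.24, with quartiles of -2.56 and -1.89, and ran from -3.85 to -0.84. Both WT clones were above both DKO clones at 316 regions (17.2% of all regions), and 131 of the 318 (41.2%) were called lower, where 2.24% of all regions were. None was called higher, where 0.00377% of all regions were. The totals come from the same clones, the same contrast and the same first ChIP as the values that chose the regions, so these counts are no separate evidence. At the other 7245 promoter regions the median difference was -0.07 and 41 were called lower. The count depended on the scaling and the fit, with 260 when each library was centred on its median and 206 with quantile normalisation or with all 16 clone libraries in 1 fit. The count also moved widely when 1 clone was left out. Such a fit holds a single clone in 1 group, so its count cannot say how far the result rests on the clone left out. The median difference was -1.65 without WT clone 57, -2.81 without WT clone 58, -2.03 without DKO clone 43 and -2.44 without DKO clone 53.

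For total H3K27me3 the median difference was -1.33, with quartiles of -1.68 and -1.02 and a range from -3.11 to 0.41. Both WT clones were above both DKO clones at 300 regions (15.8% of all regions), and 116 of the 318 (36.5%) were called lower, against 1.19% of all regions. None was called higher, against 0.252% of all regions. The other promoter regions had a median of 0.12, with 16 called lower and 10 called higher. Without WT clone 57 the count was 85, without WT clone 58 it was 249, and without DKO clone 53 it was 31. It was 0 without DKO clone 43, with 94 regions at an unadjusted p under 0.05 and a median difference of -1.12. Centring the libraries on their medians gave 190, and it was 8 when all 16 clone libraries shared 1 fit, and 0 in a fit without variance trend or robust estimation, where 212 regions had an unadjusted p under 0.05.

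Taking both marks, 55 regions were called lower in both totals, 76 in total H3K4me3 only, 61 in total H3K27me3 only and 126 in neither, where all regions had 0.418%, 1.82%, 0.776% and 97.0%. A difference of at least 2 was reached by 211 regions in total H3K4me3 and by 47 in total H3K27me3, against 4.06% and 0.663% of all regions. The H3K4me3 difference was the lower one at 282 regions (88.7%), but also at 70.1% of the other shared promoter regions and at 58.0% of all regions. Whether the marks differed in how much they changed was tested as an interaction of genotype and ChIP. The interaction (H3K27me3 difference minus H3K4me3 difference) had a median of 0.85 at the 318 regions, 0.30 at the other promoter regions and 0.16 over all regions. No region of the 318 was called by limma, against 0.0301% of all regions, with a smallest adjusted p of 0.537. An unadjusted p under 0.05 was found at 25 regions, against 3.96% of all regions, and 9 regions were called without WT clone 58.

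**Figure D3:**
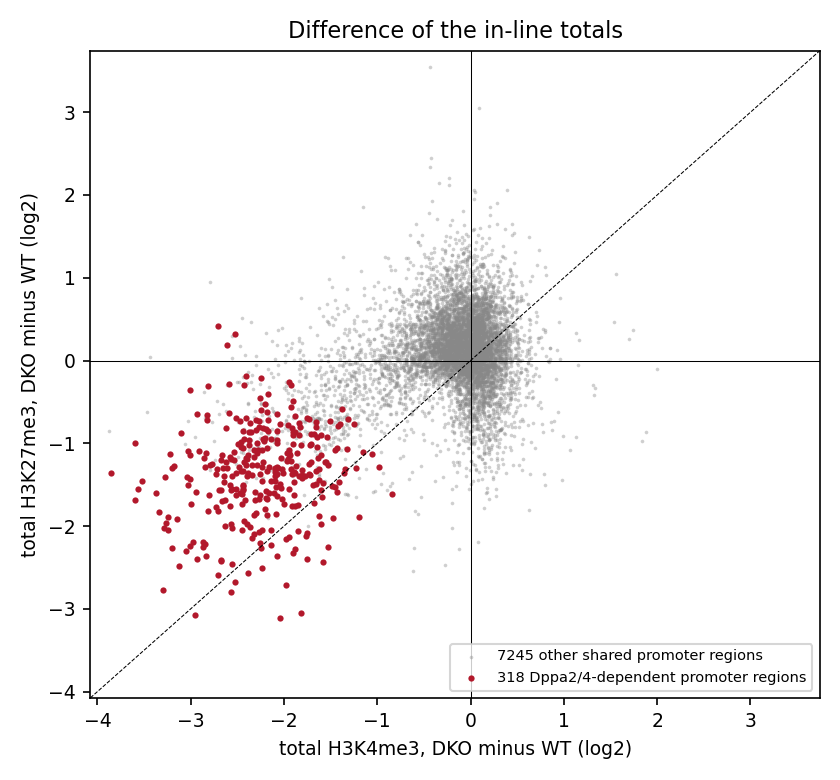
DKO minus WT difference in total H3K4me3 (x axis) and total H3K27me3 (y axis), log2, for the 318 Dppa2/4-dependent promoter regions (red) and the 7245 other shared promoter regions (grey), with a dashed line where both are equal. All 318 red points lie left of 0 and 315 lie below 0, while the grey points centre on -0.07 and 0.12.

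The widest H3K4me3 differences were at Sohlh2, Dmrtb1, Gm40602, Arhgef6 and Cdcp1. Sohlh2 (chr3:55181551-55182900), a germ cell transcription factor gene, had total H3K4me3 of 2.49 and 1.12 in WT and -2.39 and -1.71 in DKO, a difference of -3.85 ± 0.75. Its total H3K27me3 was 0.45 and 0.89 in WT and -1.04 and -0.34 in DKO (-1.36 ± 0.48, not called). Dmrtb1 (chr4:107682901-107684550), another germ cell factor gene, had 2.92 and 1.19 against -1.58 and -1.51 in H3K4me3, and 1.53 and 0.99 against 0.13 and 0.41 in H3K27me3. For both genes the H3K4me3 values of the clones did not overlap and lay below IgG-IgG in the DKO clones. At Dmrtb1, where IgG-IgG was 1.33, WT clone 58 was below it too, in both totals. Arhgef6, a guanine nucleotide exchange factor gene on the X chromosome, had a difference of -3.57 ± 0.83 in H3K4me3, and Cdcp1, a cell surface glycoprotein gene, had -3.52 ± 0.69. Gm40602 had -3.60 ± 0.71 and was the only one of these 5 that was also called in total H3K27me3 (-1.68 ± 0.43).

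At the other end were Khdc3, Henmt1, Tac1, the protocadherin region of Pcdhgb8 and Pcdhga12, and Krtap17-1, none of which was called in total H3K4me3. Khdc3, a maternal factor of the early embryo, had total H3K4me3 of 2.69 and 1.59 in WT and 1.27 and 0.62 in DKO, all above IgG-IgG at 0.22. Its total H3K27me3 was 2.01 and 1.57 in WT and -0.08 and -0.12 in DKO, and this was called (-1.89 ± 0.43). Khdc3 thus kept H3K4me3 above background in both DKO clones while its H3K27me3 was below it. Tac1, the precursor of substance P, had total H3K4me3 of only 0.45 and -0.12 in WT against -1.17 and -0.61 in DKO. Krtap17-1, a hair keratin-associated protein gene, had 0.61 and -0.00 against -0.81 and -0.28, and Henmt1, the methyltransferase of piRNAs, had 1.08 and 0.38 against -0.58 and -0.28. At Tac1 and Krtap17-1 WT clone 58 was itself below IgG-IgG (0.39 and 0.06) in total H3K4me3.

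In total H3K27me3 the widest differences were at Oxct2a, Scara3, Tbr1, Twist2 and Gp5. Tbr1 (chr2:61804651-61806450), a T-box factor gene of cortical neurons, had 2.27 and 1.46 in WT and -1.46 and -0.93 in DKO, a difference of -3.06 ± 0.45. Its H3K4me3 difference of -1.82 ± 0.73 was not called. Scara3, a scavenger receptor gene, had total H3K27me3 of 1.51 and 1.23 against -2.87 and -0.54. Oxct2a, a testis ketone-body enzyme gene, had 1.42 and 0.77 against -2.83 and -1.19, and its near-identical copy Oxct2b is also among the regions. The paper kept only confidently mapped reads, so reads that fit both copies equally may be missing from both.

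At a few regions total H3K27me3 was not lower in both DKO clones than in both WT clones. Fgf20, a fibroblast growth factor gene, had total H3K27me3 of 1.85 and 0.60 in WT and 0.87 and 1.16 in DKO, so the genotypes overlapped. Its total H3K4me3 was 2.58 and 1.53 in WT and -0.56 and 0.17 in DKO. Ptgdr, a prostaglandin D receptor gene, had 1.18 and 0.23 against 0.71 and 0.33 in H3K27me3 and 1.84 and 0.38 against -1.33 and -1.28 in H3K4me3. At both genes H3K27me3 overlapped between genotypes and H3K4me3 did not, but neither total nor the difference between the marks was called. The H3K27me3 difference was above 0 at 3 regions, 4930524B15Rik (0.19 ± 0.44), a region of the potassium channel subunit gene Kcnab1 (0.32 ± 0.50) and the testis ribosomal protein gene Rpl10l (0.41 ± 0.58), none beyond its error. Leaving out a single clone turned the H3K27me3 sign at 4930524B15Rik (-0.21 without WT clone 58), Kcnab1 (-0.11 without WT clone 58) and Ptgdr (0.29 without WT clone 57), and at Fgf20 (0.41 without WT clone 57).

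The 318 regions reach 333 genes, of which 304 have a protein-coding RefSeq transcript and 29 have non-coding transcripts only. A single gene was assigned to 300 regions, and genes with 2 regions each include Shank2, Kcnab1 and AI854703. Members were found on every autosome and on X, from 2.89% of the shared promoter regions of chromosome 8 to 7.92% of those of chromosome 3, with 14 of 251 on X. Within 100 kb of another lay 23 of the regions, among them 6 of the Pcdhb cluster (Pcdhb2, Pcdhb7, Pcdhb9, Pcdhb11, Pcdhb16 and Pcdhb21), the histocompatibility genes H2-Q5, H2-Q6 and H2-Q7, the olfactory receptor genes Olfr94 and Olfr95, the paired guanylate cyclase subunits Gucy1a1 and Gucy1b1, and Zar1 beside Slc10a4l. Copies within H2-Q and Pcdhb, and the pair Taf7l and Taf7l2, are so alike that their reads may be shared, and their values are uncertain.

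G protein-coupled receptors gave 24 regions with a median difference of -2.42 in total H3K4me3 (10 called lower) and -1.45 in total H3K27me3 (11 called lower). The shares called lower were 41.2% and 36.5% over the 318 regions and 2.24% and 1.19% over all regions, and the class is described here without a comparison to other classes. They include receptors of peptides (Sstr4, Sstr2, Galr1, Tacr3, Rxfp3, Nmbr, Npbwr1, Npy2r, Avpr1a, Oxtr, Qrfprl), of monoamines, acetylcholine and melatonin (Htr4, Htr5b, Drd5, Chrm2, Mtnr1b), of prostaglandins (Ptger1, Ptgfr, Ptgdr), of odorants (Olfr94, Olfr95), and the orphan receptors Gpr26, Gpr101 and Gpr149. All 24 lay below 0 in both totals, as did all 318 regions in total H3K4me3 and 315 of them in total H3K27me3. The H3K4me3 differences of the 24 ran from -3.20 to -1.53.

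Secreted ligands and their binding proteins gave 15 regions with medians of -2.0 in total H3K4me3 (4 called lower) and -1.13 in total H3K27me3 (3 called lower). This class includes the BMP family member Bmp3, Wnt16, Fgf14, Fgf20, the axon guidance factor Slit1, the peptide precursors Kiss1, Cck and Tac1, the endothelin Edn2, the cytokines Csf1 and Tnfsf13b, and Nxph2, Crhbp and Apoa5. Bmp3 (chr5:98854201-98856600) was called in both totals, with total H3K4me3 of 1.98 and 0.83 in WT against -1.33 and -0.77 in DKO and total H3K27me3 of 2.01 and 1.15 against -0.87 and -0.06. At Wnt16 neither total was called, with H3K4me3 of 2.14 and 1.01 against -0.47 and -0.25. Of 67 Wnt, BMP and Hedgehog pathway genes with a shared promoter region, 3 (4.48%) were members, beside 4.14% of all 8040 genes. In each total 1 of the 67 (1.49%) was called lower, where the share of all 8040 genes was 2.29% in total H3K4me3 and 1.77% in total H3K27me3.

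Transcription factors gave 30 regions with medians of -2.13 in total H3K4me3 (9 called lower) and -1.53 in total H3K27me3 (16 called lower). They include the bHLH factors Twist2, Tcf21, Olig3, Bhlha9, Nhlh2 and Myod1, the homeodomain factors Pou3f4, Dbx2, Vsx1, Bsx, Pdx1 and Prox1, the T-box factors Tbr1 and Tbx4, and also Esr1, Skor2, Foxi2, Myocd, Gfi1, Lmo1, Tfap2e, Cebpe, Tshz2, Repin1, Zfp629, Zfp319, Zfp831 and Zfp853. Of 173 classic developmental factors with a shared promoter region, 6 (3.47%) were members, among them Olig3, Pdx1, Pou3f4, Tbr1 and Tbx4, where 4.14% of all genes were. Over the whole list of 173 genes, 1 was called lower in total H3K4me3 (0.578%) and 3 in total H3K27me3 (1.73%), beside 2.29% and 1.77% of all genes, and the median differences were -0.11 and -0.03.

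Among these 6, Olig3 had total H3K4me3 of 2.70 and 1.57 in WT and -0.14 and -0.28 in DKO and was called, and its total H3K27me3 of 2.08 and 1.26 against -0.03 and 0.84 was not. Tbx4 was the reverse, with H3K27me3 of 2.02 and 1.5 against -0.17 and 0.38 called and H3K4me3 of 1.95 and 0.85 against -1.12 and -0.47 not called. The clones of the 2 genotypes did not overlap in any of these values.

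Germline and gamete genes gave 24 regions with medians of -2.33 in total H3K4me3 (10 called lower) and -1.44 in total H3K27me3 (11 called lower). They include factors of germ cell identity and piRNA silencing (Ddx4, Asz1, Tdrd6, Henmt1, Sohlh2, Nobox, Dmrtb1), of the synaptonemal complex (Sycp1, Syce1), of oocyte and early embryo (Zar1, Khdc3), and of sperm and testis (Taf7l, Taf7l2, Slc25a31, Hsf5, Adad1, Spaca1, Dpy19l2, Actl7b, Oxct2a, Oxct2b, Rpl10l, Pabpc6, H2ac1, H2bc1). Of 32 germline and meiosis genes on a list with a shared promoter region, 9 (28.1%) were members, beside 4.14% of all genes. This and the other gene lists were chosen with earlier results of these data known. Membership follows the reChIP values of the rule, so these shares are a description and were not tested. In that list of 32 the median differences were -0.86 in total H3K4me3, with 4 genes (12.5%) called lower, and -0.42 in total H3K27me3, with 3 (9.38%) called lower, against 2.29% and 1.77% of all genes.

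Ddx4 (the germ cell helicase Vasa) had total H3K4me3 of 1.36 and 0.81 in WT and -1.41 and -1.04 in DKO, and total H3K27me3 of 2.20 and 1.39 against 0.30 and -0.07. Sycp1, which joins chromosome axes in meiosis, had 1.87 and 0.40 against -0.71 and -0.38 in H3K4me3 and 1.84 and 1.28 against -0.69 and 0.38 in H3K27me3. Both were called in H3K27me3 only. Tdrd6 was called in both totals, with H3K4me3 of 2.15 and 0.90 against -0.88 and -0.79, and Syce1 in H3K4me3 only, with 2.86 and 1.39 against -1.38 and 0.19. Asz1 was called in neither, and its WT clone 58 (-0.52) and DKO clone 53 (-0.28) overlapped in total H3K4me3.

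Adhesion and matrix genes gave 31 regions with medians of -2.32 in total H3K4me3 (16 called lower) and -1.26 in total H3K27me3 (9 called lower). The class includes matrix proteins and their modifiers (Svep1, Thbs4, Tnxb, Col19a1, Col4a3, Col4a4, Col16a1, Gldn, Frem3, Papln, Adamts16, Fbln7), integrins (Itga4, Itga11), synaptic and neuronal adhesion proteins (Nlgn1, Lsamp, Opcml), junction proteins (Cldn5, Cldn11, Dsc3, Pkp1, Sspn) and cadherins (Cdh20, the Pcdhb genes above, Pcdhgb8, Pcdhga12). Of 76 cadherin and protocadherin genes with a shared promoter region, 9 (11.8%) were members, beside 4.14% of all genes, and 4 of the 76 (5.26%) were called lower in total H3K4me3 and 3 (3.95%) in total H3K27me3, against 2.29% and 1.77% of all genes. Cdh20 had total H3K4me3 of 2.15 and 0.97 in WT against -1.48 and -0.07 in DKO, and Pcdhb21 had 2.39 and 1.20 against -1.03 and -0.34. Both were called in H3K4me3 and in neither case was H3K27me3 called.

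Ion channels gave 15 regions with medians of -1.97 in total H3K4me3 (2 called lower) and -1.34 in total H3K27me3 (5 called lower). They are mostly potassium channel subunits and partners (Kcna2, Kcna5, Kcna6, Kcnab1, Kcne1l, Kcnf1, Kcng2, Kcnip1, Kcnip4, Kcnt1, Kcnv1, Kcnv2) with the cation channels Trpc6 and Trpm6. Of 174 genes on the ion channel list, 15 (8.62%) were members beside 4.14% of all genes, a count that includes the antisense gene Grin1os. In the list of 174, 2 genes (1.15%) were called lower in total H3K4me3 and 8 (4.60%) in total H3K27me3, against 2.29% and 1.77% of all genes. Kcnv2 had total H3K27me3 of 1.93 and 1.17 in WT against -1.46 and 0.32 in DKO, which was called, and Kcna2 had 1.94 and 1.03 against -0.13 and 0.41, which was not.

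Solute carriers gave 17 regions with medians of -2.03 in total H3K4me3 (3 called lower) and -1.38 in total H3K27me3 (6 called lower). They include transporters of neurotransmitters (Slc6a2 for noradrenaline, Slc6a5 for glycine, Slc6a11 for GABA, Slc18a2 for vesicular monoamines), of organic cations (Slc22a3), of sodium and calcium (Slc8a3), and Slc5a8, Slc7a14, Slc10a4, Slc10a4l, Slc13a3, Slc15a3, Slc16a8, Slc34a2, Slc35f3, Slc44a5 and Slc46a2. With the sperm mitochondrial carrier Slc25a31, 18 of 173 listed genes (10.4%) were members, where 4.14% of all genes were. Of the 173, 3 (1.73%) were called lower in total H3K4me3 and 7 (4.05%) in total H3K27me3, against 2.29% and 1.77% of all genes, and 2 of the 173, at regions outside the 318, were called higher in total H3K27me3, as were 10 of all 8040 genes. Slc6a11 had total H3K27me3 of 2.13 and 1.70 in WT against -1.46 and -0.14 in DKO, a difference of -2.72 ± 0.44. Slc22a3 and Slc10a4l were called in both totals, and Slc8a3 in neither.

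Immune genes gave 10 regions with medians of -2.37 in total H3K4me3 (4 called lower) and -1.48 in total H3K27me3 (5 called lower), at H2-Q5, H2-Q6, H2-Q7, the DNA sensor Tlr9, the cytokine receptors Il12rb2 and Il17rb, Gbp7, Cd83, Ptx3 and Alox5. Keratins and other filament genes gave 5 regions, at Krt7, Krt72, Krt87, Krtap17-1 and the lens gene Bfsp1, with medians of -1.80 and -1.41 and 1 called lower in each total. Over the 318 regions 41.2% and 36.5% were called lower, and over all regions 2.24% and 1.19%. No Polycomb or Trithorax subunit gene, of 15 with a shared promoter region, was a member, and none was called in either total. The classes thus spanned medians from -2.42 to -1.80 in total H3K4me3 and from -1.53 to -1.13 in total H3K27me3, a spread smaller than that among regions within a class.

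The other 161 genes, at 155 regions, had medians of -2.30 in total H3K4me3 (75 called lower) and -1.30 in total H3K27me3 (51 called lower), where 2.24% and 1.19% of all regions were called lower. Signalling, cytoskeletal and synaptic scaffold genes among them include Dab1, Shc3, Shank2, Sntg1, Lin7a, Pde4dip, Stac, Aatk, Dgkg, Rasgrf2, Arhgef6, Rhoj, Daam2, Ripor2, Parva, Fermt1, Frmd3, Frmd4b, Dpysl3, Add2, Arpp21, Lrrfip1, Nckap5, Dusp26, Gucy1a1, Gucy1b1, Lepr, Gfra3, Fyb2, Ttll7, Tuba8, Pfn3, Kif12, Klhl40, Ky, Pgm5, Pdzrn4 and Caln1. Enzyme genes are Acot12, B3galt5, St6galnac5, Fut4, Car4, Ch25h, Chdh, Cmpk2, Cyp27a1, Gatm, Gnmt, Hsd17b1, Srd5a2, Me3, Mogat1, Mtarc1, Plaat1, Plbd1, Smpdl3a, Tymp and Uggt2, and proteases are Corin, Cpxm2, Ctsh, Htra3, Lvrn, Prss36 and Tmprss2. Genes of vesicles, membranes and transport include Syt15, Syt16, Sytl4, Sv2b, Lamp5, Ap1m2, Atp2b3, Atp2c2, Mcub, Rhcg, Nipal4, Plppr5, Amn, Lrp1b, Scara3, Clec14a, Cdcp1, Gp5, Luzp2, Thsd7b, Lrrc26, Ptchd3, Tmem26, Tmem114, Tmem171, Tmem210 and Tmem215, with the neuronal globin Ngb.

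Further protein-coding genes are Ankrd60, C2cd4d, Ccdc185, Ccer1, Dcaf12l2, Dcdc2c, Dnajb3, Fam135b, Fam163a, Fam170b, Fem1al, Hdgfl1, Kbtbd12, L3mbtl4, Lrg1, Lrmda, Mab21l2, Mamld1, Medag, Mycs, Nap1l5, Nkpd1, Odf3b, Prr23a1, Rarres1, Ripply2, Rnf138rt1, Sbspon, Trim52, Trim58, Ttc22 and Zfp36l3. Non-coding, predicted or clone-named loci are the microRNA genes Mir10b and Mir1963, the Pdx1 neighbour Plut, Grin1os, Zfa-ps, AI854703, AW822252, 1500012K07Rik, 2810429I04Rik, 2900079G21Rik, 3632454L22Rik, 4833422C13Rik, 4930523C07Rik, 4930524B15Rik, 9330158H04Rik, 9330175E14Rik, D330025C20Rik, Gm12111, Gm13205, Gm13420, Gm16835, Gm16976, Gm17182, Gm19410, Gm26684, Gm31690, Gm36529, Gm37294, Gm40602, Gm5294, Gm5737 and Gm5878.

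Members that the study itself shows or names include Fam163a, Csf1 and Lmo1. Fam163a had total H3K4me3 of 2.96 and 1.68 in WT against -1.08 and 0.26 in DKO, and total H3K27me3 of 2.69 and 1.90 against 0.64 and 1.21. Csf1 had 2.31 and 1.20 against -0.50 and 0.16 in H3K4me3. Lmo1, a LIM-only transcriptional regulator gene, had 2.42 and 1.17 against -0.71 and 0.21 in H3K4me3, and in total H3K27me3 1.93 and 1.18 against 0.52 and 1.04. The clones did not overlap in any of these values, and Fam163a was called in total H3K4me3 while Csf1 and Lmo1 were called in neither total.

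E14 cells, which the rule did not use, carried both marks together at nearly all of these regions. Over E14 IgG-IgG, the K4-K27 median at the 318 regions was 2.29 (replicate 1) and 2.61 (replicate 2), and the K27-K4 median was 2.33 and 3.67. All 4 reChIP libraries exceeded IgG-IgG at 317 regions (99.7%), and at 91.3% of 7230 other shared promoter regions that have E14 values. All E14 values were read at regions listed for E14 reChIP. The paper calls such regions in these libraries against IgG-IgG, so a level above it was largely set in advance. The other regions had medians of 1.74, 2.40, 2.10 and 3.41 in these 4 libraries. The exception among the 318 was Trim52, at -0.17 in K4-K27 replicate 1. Regions had to be high in the WT clones to enter, so a high level in another WT line goes with the choice and was not tested against the other regions.

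The E14 totals showed less H3K4me3 and more H3K27me3 at these regions than at other shared promoters, as the WT clones did. Median enrichment in total H3K4me3 was 0.61 and 0.58 in replicates 1 and 2, against 0.88 and 1.09 at the other regions, and in total H3K27me3 it was 0.97 in both replicates against 0.34 and 0.28. The paper sequenced replicate 2 more deeply than replicate 1, and the order of the medians was the same within both. With the IgG-IgG of WT clone 57 as background these values became 0.54 and 0.49, then 0.89 and 0.82.

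**Figure D4:**
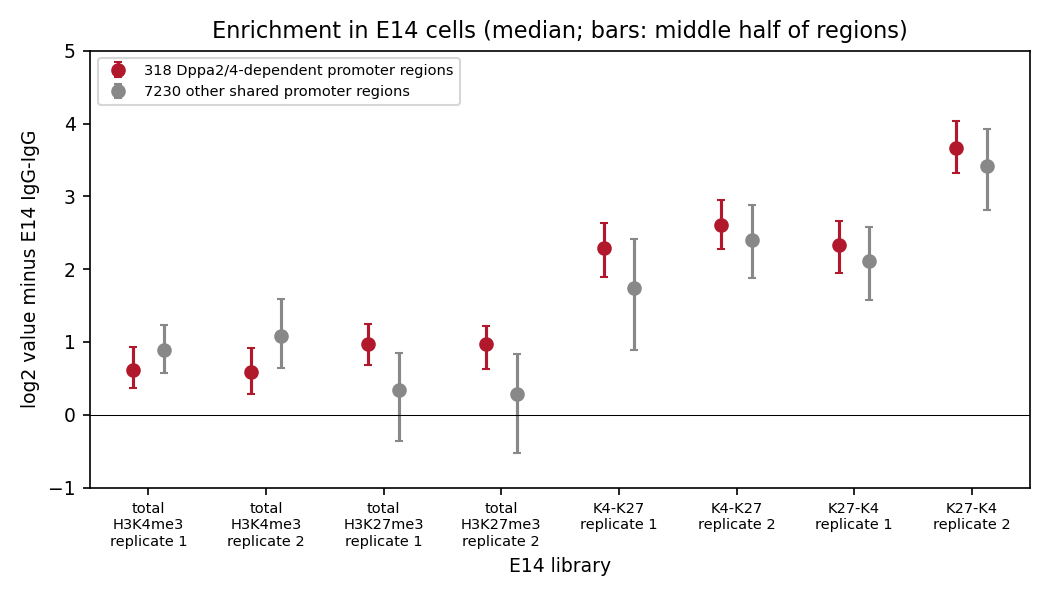
Median enrichment over E14 IgG-IgG (log2) in each E14 library for the 318 Dppa2/4-dependent promoter regions (red) and 7230 other shared promoter regions (grey), with bars over the middle 50% of regions. Red medians are below grey in total H3K4me3 and above grey in the 6 libraries of total H3K27me3, K4-K27 and K27-K4, with wide overlap of the bars in the reChIPs.

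The mean of the 4 E14 reChIP enrichments ran from 1.05 to 4.24 with a median of 2.72. Regions near the top were those of Pou3f4 (4.06), a POU factor gene of the inner ear and brain on the X chromosome, and Sntg1 (3.99), a neuronal syntrophin gene. It was lowest at Trim52 (1.05), 2810429I04Rik (1.16) and Kcnab1 (1.20). A high level in E14 cells did not go with a complete loss in the DKO clones at Sntg1, which had K4-K27 of 0.29 and 1.61 in the DKO clones against 3.99 and 3.43 in WT, with IgG-IgG at -0.02. Pou3f4 in contrast had -2.78 and -3.08 in the DKO clones against 2.30 and 1.99 in WT, below its IgG-IgG of -0.40. These DKO values rest on few reads.

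Region lists made by the authors give the same picture by presence or absence, an overlap of at least 1 bp counting as listed. All 318 regions were listed in E14 K27-K4 and 312 (98.1%) in E14 K4-K27, close to the 99.8% and 97.4% of the other shared promoter regions. Fewer were listed in the E14 totals, 159 (50.0%) in H3K4me3 and 160 (50.3%) in H3K27me3, where the other regions had 75.1% and 30.0%. The paper reports that few peaks could be called from the E14 in-line totals, likely because of low signal over noise. Absence from a total list therefore need not mean absence of the mark. In E14 cells 90 regions were in both total lists, 69 in H3K4me3 only, 70 in H3K27me3 only and 89 in neither, where the other regions had 20.5%, 54.6%, 9.52% and 15.4%. The K27-K4 list of E14 cells thus holds 89 of these regions that its total lists do not.

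In the WT clones 203 regions (63.8%) were in both total lists, against 37.6% of the other shared promoter regions. In the DKO clones 254 (79.9%) were in neither, against 9.05% of the other regions. The DKO lists held 59 of the regions (18.6%) in total H3K27me3 and 11 (3.46%) in total H3K4me3, against 45.9% and 82.1% of the others. Among the 11 are Lepr, Zfp319, Edn2, Apoa5, Kcnip4, Oxtr, Trpc6, Frmd3, Nxph2 and Csf1. In reChIP, 31 regions were in both DKO lists and 243 (76.4%) in neither, where 4.03% of the other regions were in neither. Oxtr, the oxytocin receptor gene, shows what such a listed region looks like, with total H3K4me3 of 2.08 and 1.13 in WT and 0.13 and 0.02 in DKO over an IgG-IgG of -0.50. These lists come from the same libraries as the values and are not separate measurements.

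The DNA of the regions was less dense in CpG than that of other shared promoters and similar in GC content. The median was 3.78 CpGs per 100 bp, with quartiles of 3.33 and 4.47, where the other 7245 regions had 4.44 with quartiles of 3.53 and 5.45. Median GC fraction was 0.557 and 0.561, and the ratio of observed to expected CpG was 0.500 and 0.577. The quartile ranges overlap, and no region of the 318 was below 2.09 or above 7.52 CpGs per 100 bp. Within 250 bases upstream of the start site, 236 regions with a RefSeq promoter had a median of 9.5 CpGs and 5512 others had 16, so that of the sequences printed above Pdzrn4 lies under both medians, Dab1 close to the first, and Sstr4 and Twist2 over both. The regions were 1800 bp wide at the median, against 2250 bp, contained a start site at 86.5%, against 92.9%, and were 8.04% repeat sequence, against 9.58%.

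**Figure D5:**
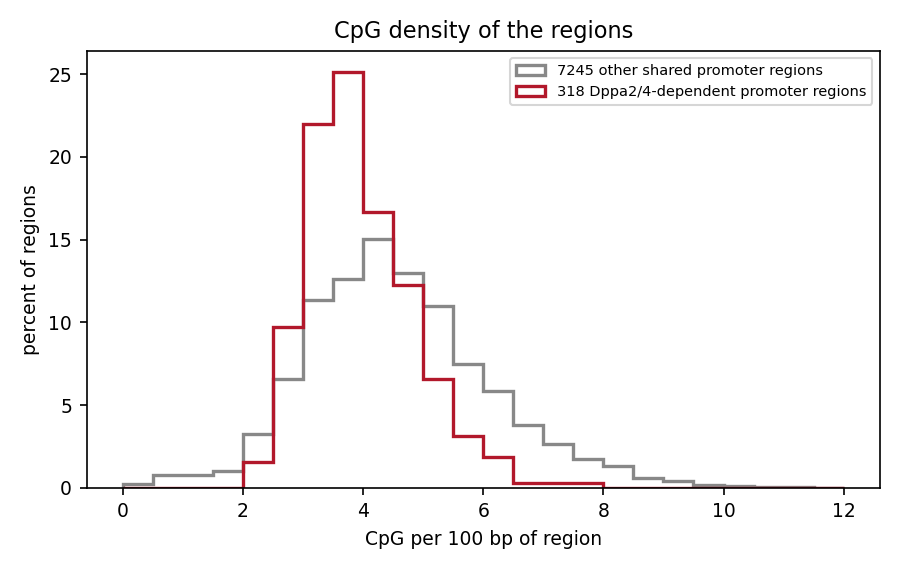
Share of regions (percent, y axis) by CpG per 100 bp (x axis, bins of 0.5) for the 318 Dppa2/4-dependent promoter regions (red) and the 7245 other shared promoter regions (grey). The red curve is narrower and sits lower, with medians of 3.78 and 4.44.

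CpG density also varied among the gene classes. Germline and gamete regions had a median of 4.63 CpGs per 100 bp and ligand regions 3.24, with receptors at 4.02 and transcription factors at 4.24. The E-box letters CACGTG, which read the same on both strands and hold a CpG, were found in 23 of the 236 upstream sequences (9.75%), in 9.67% of the 5512 others and in 7.15% of all 32851 RefSeq promoter sequences. The motif was thus about as frequent at these regions as at other shared promoters, which describes these windows and no binding.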

How the data were processed

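Of 26 libraries, 17 came from the clones (WT 57, WT 58, DKO 43, DKO 53) and 9 from E14 cells. The authors deposited them as log2 RPM per kb of listed region, without IgG subtraction and with duplicate reads kept. The submitters' processing notes name Trim Galore 0.6.6, BWA 0.7.13, SAMtools 1.9, Picard 2.6.0, deepTools 3.5.0 and MACS2, on mm10. Depth was recovered from the steps between the deposited log2 values, all of which came out as whole reads within 0.01. Columns were matched to samples by name, and 32 columns without a sample here were left out.

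Start sites (31603, of NM and NR transcripts) and sequences were those of RefSeq on GRCm38.p6, the build of mm10, and 236 regions matched a RefSeq promoter. The members and gene lists were chosen with earlier results of these data known. By rule, all member genes were to be named once (a few are not reported here), and with values those with the widest gap, the widest and narrowest differences in each total, the highest and lowest E14 enrichment, those at the threshold, those the study names, and up to 5 of each gene list. The reChIP difference was not tested because the rule used it.

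DKO and WT totals were compared with limma 3.58.1 in R 4.3.3 (lmFit, then eBayes with trend and robust estimation), chosen because the deposited unit is log2. P-values were adjusted by the Benjamini-Hochberg method over 26544 regions, and a call needed a log2 difference beyond 1 and an adjusted p under 0.05. The fit was also run on simulated data with shifted regions, and its outcome is not reported here. Summaries used Python 3.11.15 with pandas 2.3.3 and numpy 2.4.6, and plots matplotlib 3.10.9. Totals of the 2 marks from a clone come from the same cells and were taken as paired in an alternative fit, although their deviations from the group means correlated at -0.0735 in WT and 0.0386 in DKO over 12025 regions. Alternatives were other thresholds, promoter widths, scalings, filters, tables and fits, and leaving out each clone. Start sites of predicted transcripts were added as an alternative after the data were seen.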

Additional observations from a re-analysis of the deposited data

How the results depend on the processing

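The number of regions that meet the rule was 502 at a threshold of 1 and 185 at a threshold of 2. It was between 276 and 368 with other promoter widths, another overlap, centred libraries or start sites of predicted transcripts, the last chosen after seeing the data, and between 330 and 575 with 1 clone left out (575 without WT clone 58). Of the 318 regions, those called lower in total H3K4me3 numbered 260 with each library centred on its median, 206 with quantile normalisation, 206 with all 16 clone libraries in 1 fit, and 216 of 278 in the table of WT total H3K4me3 regions. Leaving out 1 clone gave 0 to 305. In total H3K27me3 they numbered 190 with centred libraries, 0 without variance trend and robust estimation, 8 with all 16 libraries in 1 fit, and 0 to 249 with 1 clone left out. The cause of these shifts was not tested. The median over the 318 regions stayed below 0 in both totals under each of these settings. Over all regions, the H3K4me3 median moved to 0.54 without WT clone 57 and to -0.60 without WT clone 58, and it was 0.13 after centring.

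With the clone as a replicate block, pairing the totals of a clone, the interaction called 0 of the 318 regions, as without it, with 35 at an unadjusted p under 0.05, and it called 0 to 9 with 1 clone left out. The E14 medians over the IgG-IgG of WT clone 57 were 0.54 and 0.49 in total H3K4me3 and 0.89 and 0.82 in total H3K27me3. Among the 60 regions followed individually with 1 clone left out, the total H3K27me3 difference changed sign at 6 genes, none of them called in that total, and ran from -0.84 to 0.41 at Fgf20, -0.66 to 0.29 at Ptgdr (0.01 without DKO clone 53), -0.88 to 0.35 at Cebpe, -1.88 to 0.11 at Asz1, -0.21 to 0.59 at 4930524B15Rik and -0.11 to 0.74 at Kcnab1. Count tests on recovered reads were not run. With 1 IgG-IgG library per cell source, the error of the background is not known, and where DKO libraries hold few reads a lower level was not detectable.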
